A study of Homo sapiens with 10 samples.

Results

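The protein 4.1 family is a group of 7 human genes, EPB41, EPB41L1, EPB41L2, EPB41L3, EPB41L4A, EPB41L4B and EPB41L5, whose expression was followed in Panc1 cells carrying the transcription factor KLF11 or one of its mutants. Members were taken by gene name. Each was represented by its brightest transcript cluster, the set of probes that together read 1 gene on the array. All 7 had a cluster, and in each case it was the only cluster that carried the symbol alone, among 20961 clusters with a gene symbol. The family was chosen by its changes against empty vector in these same arrays, so those changes are given as a description and carry no p-value.

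Panc1 is an established line of human pancreatic carcinoma, labelled as pancreatic epithelial cells. The cells received adenovirus at a multiplicity of infection of 150, and RNA was taken 48 h later. There were 5 groups of 2 arrays each. The empty vector (EV) group received virus without an insert. The KLF11 group received the wild type protein, a zinc finger factor that can repress or activate genes through several chromatin partners. The A347S group received a substitution that uncouples KLF11 from WD40 proteins. The Δ486 group received a deletion that uncouples it from HP1 and its histone methyltransferases, and the EAPP group received prolines in the domain that binds Sin3, which uncouples it from the Sin3 and histone deacetylase complex. All groups therefore shared the virus, the dose and the time, and differed in the insert. The model is overexpression in 1 cell line, with the protein driven by a viral promoter. RNA of each group was pooled from triplicate cultures and hybridised in technical duplicate, although the sample titles call the duplicates biological, so every error below is a spread between arrays and not between cultures. The arrays gave medians of 6.81 to 6.87 on the log2 scale, and duplicates correlated with Pearson's r of 0.996 to 0.997 over all clusters.

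Proteins of this family carry a FERM domain, a module that docks on the inner face of the plasma membrane and binds the tails of transmembrane proteins. EPB41, also named 4.1R, is the founding member. In the red cell it holds spectrin and actin together and ties this skeleton to the membrane, and in nucleated cells it is found at cell contacts, the centrosome and the nucleus. EPB41L1 (4.1N), EPB41L2 (4.1G) and EPB41L3 (4.1B) are its close relatives with a spectrin-actin binding domain, EPB41L3 being known as a growth suppressor lost in several tumours. EPB41L4A, EPB41L4B and EPB41L5 have a FERM domain without that skeleton-binding part, and EPB41L4B and EPB41L5 act in epithelial polarity and cell movement. The genes lie on 7 chromosomes: 1 for EPB41, 20 for EPB41L1, 6 for EPB41L2, 18 for EPB41L3, 5 for EPB41L4A, 9 for EPB41L4B and 2 for EPB41L5.

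The paper gives CCCCGC and CCCCAC as the consensus that KLF11 binds, and other forms such as CACCC were not searched. The sequence just before the annotated start sites is shown for EPB41, which had the largest difference from EV. It is also shown for EPB41L2 and EPB41L4A, which lay below and above EV under A347S and Δ486, and for EPB41L5, which stayed close to EV. The 250 bases before each start were read from RefSeq, build GRCh38.p14, and searched on both strands for CCCCGC and CCCCAC, with overlapping matches counted separately. Entries were found for 6 of the 7 genes, EPB41L4B being the exception, in 15 windows, of which 8 held a match. In the lines that follow, each written 5′ to 3′ on the strand of the gene, capitals mark every match or its reverse complement. The first is the upstream start of EPB41 at chr1:28886850-28887099 (+), the second its downstream start at chr1:28914319-28914568 (+). The third is the first start of EPB41L2 at chr6:131063246-131063495 (-), the fourth is EPB41L4A at chr5:112419278-112419527 (-), and the last is EPB41L5 at chr2:120012827-120013076 (+).
EPB41 first start: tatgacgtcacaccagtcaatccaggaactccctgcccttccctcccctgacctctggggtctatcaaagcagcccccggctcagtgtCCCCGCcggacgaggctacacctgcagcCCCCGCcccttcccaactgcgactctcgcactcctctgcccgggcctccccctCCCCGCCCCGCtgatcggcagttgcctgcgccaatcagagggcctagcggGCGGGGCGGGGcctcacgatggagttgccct
EPB41 second start: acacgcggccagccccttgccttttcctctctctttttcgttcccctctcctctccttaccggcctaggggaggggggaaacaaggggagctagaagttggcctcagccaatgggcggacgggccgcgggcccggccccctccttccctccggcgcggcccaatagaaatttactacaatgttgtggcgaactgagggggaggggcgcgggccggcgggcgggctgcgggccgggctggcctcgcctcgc
EPB41L2 first start: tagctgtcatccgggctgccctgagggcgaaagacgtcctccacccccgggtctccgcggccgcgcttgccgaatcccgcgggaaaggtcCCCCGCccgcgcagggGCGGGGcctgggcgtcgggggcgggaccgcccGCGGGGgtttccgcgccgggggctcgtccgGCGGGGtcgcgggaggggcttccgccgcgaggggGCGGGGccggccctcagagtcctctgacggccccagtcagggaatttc
EPB41L4A: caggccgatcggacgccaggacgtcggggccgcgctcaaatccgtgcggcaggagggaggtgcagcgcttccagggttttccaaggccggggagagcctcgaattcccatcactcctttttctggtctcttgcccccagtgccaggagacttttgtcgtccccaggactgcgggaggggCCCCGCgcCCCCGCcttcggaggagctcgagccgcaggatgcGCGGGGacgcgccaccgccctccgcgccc
EPB41L5: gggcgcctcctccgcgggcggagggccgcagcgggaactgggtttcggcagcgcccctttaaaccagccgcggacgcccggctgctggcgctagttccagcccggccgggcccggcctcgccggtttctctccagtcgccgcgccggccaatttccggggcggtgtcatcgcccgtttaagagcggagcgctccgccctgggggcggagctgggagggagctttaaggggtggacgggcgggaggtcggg
The upstream window of EPB41 held 6 matches, all of CCCCGC. Of 35116 RefSeq windows of this length, 2.86% held at least as many, and 54.1% held at least 1. Its downstream window held 0 matches at the same GC content of 68.4%. EPB41L2 held 5 matches in its first window, a count reached by 5.48% of windows, and 0 in its other windows. EPB41L5 held 0 at a GC content of 74.0%, and EPB41L4A held 3, a count reached by 17.9%. EPB41L1 and EPB41L3, whose levels also stayed close to EV, each had a window with 4 matches, a count reached by 9.998% of windows. These letters describe the sequence. Which start Panc1 cells use and whether KLF11 binds there were not measured on these arrays. The paper reports a separate promoter array of KLF11 binding in Panc1 cells, which was not examined here.

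The KLF11 cluster itself served as a check of the labels. It read 8.37 and 7.75 in EV, 8.82 and 8.85 under KLF11, 8.85 and 8.88 under A347S, 8.72 and 8.83 under Δ486, and 8.78 and 8.68 under EAPP. All 8 arrays of the KLF11 constructs lay above both EV arrays, and EAPP differed from wild type KLF11 by -0.11 log2 (limma adjusted p = 0.742). The difference from EV was 0.77 ± 0.16 log2 (SE) for KLF11 (limma adjusted p = 0.00938) and shrank to 0.46 without EV replicate 2, where it passed no longer, as it did not without either KLF11 array. It was 0.67 ± 0.16 for EAPP (limma adjusted p = 0.282). Whether the probes read the viral insert as well as the cell's own gene was not tested. The Panc1 label was checked against cell type markers: 4 of 7 ductal and simple epithelial genes lay in the upper quartile of all clusters, KRT18 and KRT8 among them, and 0 of the 5 measured erythroid genes did so. CDH1 and KRT7 lay below the median. Of the 3 mesenchymal genes, VIM lay in the upper quartile and CDH2 and FN1 below the median. KRT19, a ductal keratin, had group means of 10.83 in EV, 9.84 under KLF11, 9.32 under A347S, 9.77 under Δ486 and 10.39 under EAPP. VIM, or vimentin, had group means of 12.52, 12.21, 12.04, 12.13 and 12.39 in the same order, and KRT8 12.68, 12.41, 12.26, 12.35 and 12.65. KRT19, VIM and KRT8 were lower under KLF11, A347S and Δ486 than in EV and EAPP, as EPB41 was, and so were KRT18 and SOX9. EPCAM, KRT7, CDH2 and FN1 did not follow this pattern. EPCAM had group means of 8.46, 8.58, 8.55, 8.53 and 8.54 in the same order. CDH1 was at 4.97 under Δ486 beside 4.98 in EV. The part of these markers in the results for the family was not tested.

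EPB41 was lower under KLF11, A347S and Δ486 than in EV, and it was at the EV level under EAPP. Its log2 values were 7.94 and 7.94 in EV and 7.98 and 7.96 under EAPP. They were 6.48 and 6.76 under KLF11, 6.55 and 6.37 under A347S, and 6.57 and 6.61 under Δ486. The 10 arrays thus fell into a high set from 7.94 to 7.98 and a low set from 6.37 to 6.76, with nothing between. With bulk RNA, less EPB41 RNA in every cell and fewer cells that express it cannot be told apart.

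**Figure D1:**
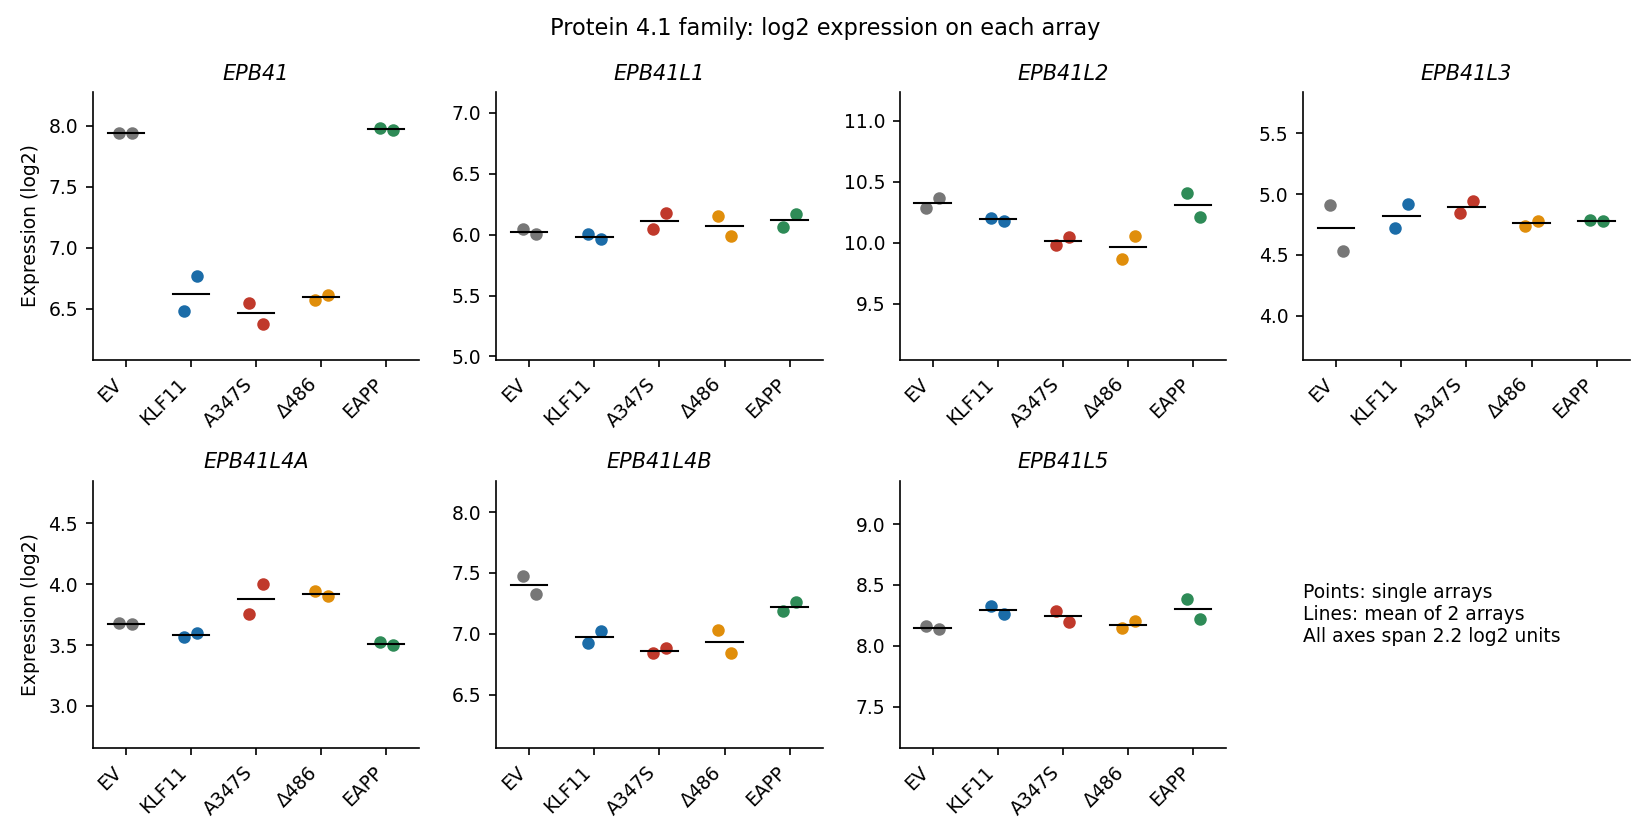
Log2 expression of each family member on every array, by group; points are arrays, lines are means of 2 arrays, and all vertical axes span the same number of log2 units. EPB41 falls into a set from 7.94 to 7.98 (EV and EAPP) and a set from 6.37 to 6.76 (KLF11, A347S and Δ486), while the arrays of EPB41L1, EPB41L3 and EPB41L5 stay close together.

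Against EV the EPB41 difference was -1.32 ± 0.10 log2 (SE, n = 2 arrays per group) under KLF11, a level 2.50-fold lower. It was -1.48 ± 0.10 under A347S, 2.79-fold lower, and -1.35 ± 0.10 under Δ486, 2.55-fold lower. With EAPP it was 0.03 ± 0.10. To be called, a cluster needed a limma adjusted p below 0.05 together with a fold of 1.5 or more, a log2 difference of 0.585. Of the 7 members, with all arrays in the fit, EPB41 alone differed from EV by this fold, under KLF11, A347S and Δ486, and none did under EAPP. Over all clusters the share called against EV was 3.99% for KLF11, 8.98% for A347S, 5.61% for Δ486 and 0.00477% for EAPP. Since the family was chosen on these contrasts, no call against EV is given for the members and nothing is read from the shares.

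EPB41L1, the neuronal relative that also occurs in epithelia, ranged over its 10 arrays from 5.96 to 6.18. Its differences against EV lay between -0.04 and 0.09 log2, each with an SE of 0.09. The Δ486 arrays spanned those of EV. EPB41L3 ranged from 4.53 to 4.94, and its widest gap was within EV itself, at 4.91 and 4.53. Its differences against EV, from 0.04 to 0.17 with an SE of 0.12, all turned negative without EV replicate 2, to between -0.15 and -0.02. Its direction is therefore not settled.

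EPB41L2, the most widely expressed relative, read 10.29 and 10.37 in EV and 10.21 and 10.18 under KLF11. It read 9.98 and 10.05 under A347S, 9.86 and 10.06 under Δ486, and 10.41 and 10.21 under EAPP. The A347S and Δ486 arrays lay below all others, and the EAPP arrays spanned those of EV. The differences against EV were -0.14, -0.31, -0.37 and -0.02 log2 for KLF11, A347S, Δ486 and EAPP, each with an SE of 0.09.

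EPB41L4B, also named EHM2, read 7.48 and 7.33 in EV and 7.19 and 7.26 under EAPP. It read 6.92 and 7.02 under KLF11, 6.84 and 6.88 under A347S, and 7.03 and 6.84 under Δ486. The EV arrays were the highest, those of EAPP came next, and the arrays of the remaining 3 groups lay from 6.84 to 7.03, with those of A347S below those of KLF11 and those of Δ486 overlapping both. Its differences against EV were -0.43, -0.54 and -0.47 log2 under KLF11, A347S and Δ486 and -0.18 under EAPP, each with an SE of 0.09. This was the second largest difference in the family for KLF11, A347S and Δ486, and with all arrays it stayed under the fold of 1.5. Without EV replicate 2 the A347S difference was -0.62, past that fold.

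EPB41L4A, also named NBL4, was the member whose arrays were highest under A347S and Δ486. It read 3.68 and 3.67 in EV, 3.56 and 3.60 under KLF11, and 3.522 and 3.503 under EAPP. With A347S it read 3.76 and 4.0, and under Δ486 3.94 and 3.90, above every other array. Its differences against EV were -0.10, 0.20, 0.25 and -0.16 log2 for KLF11, A347S, Δ486 and EAPP, with an SE of 0.09. The mean signal of its cluster, 3.71, was in the lowest 3.44% of all clusters. It lay near the leukocyte gene PTPRC at 3.59 and the endocrine gene GCG at 3.86. The mean signals of EPB41L1 and EPB41L3 were also under the median of 6.84. Brightness does not give the amount of RNA, and whether Panc1 cells express EPB41L4A was not tested.

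EPB41L5, required for the disassembly of epithelial contacts in development, ranged from 8.13 to 8.38. Its differences against EV were 0.15, 0.09, 0.02 and 0.15 log2 for KLF11, A347S, Δ486 and EAPP, with an SE of 0.08. The Δ486 arrays overlapped those of EV.

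**Figure D2:**
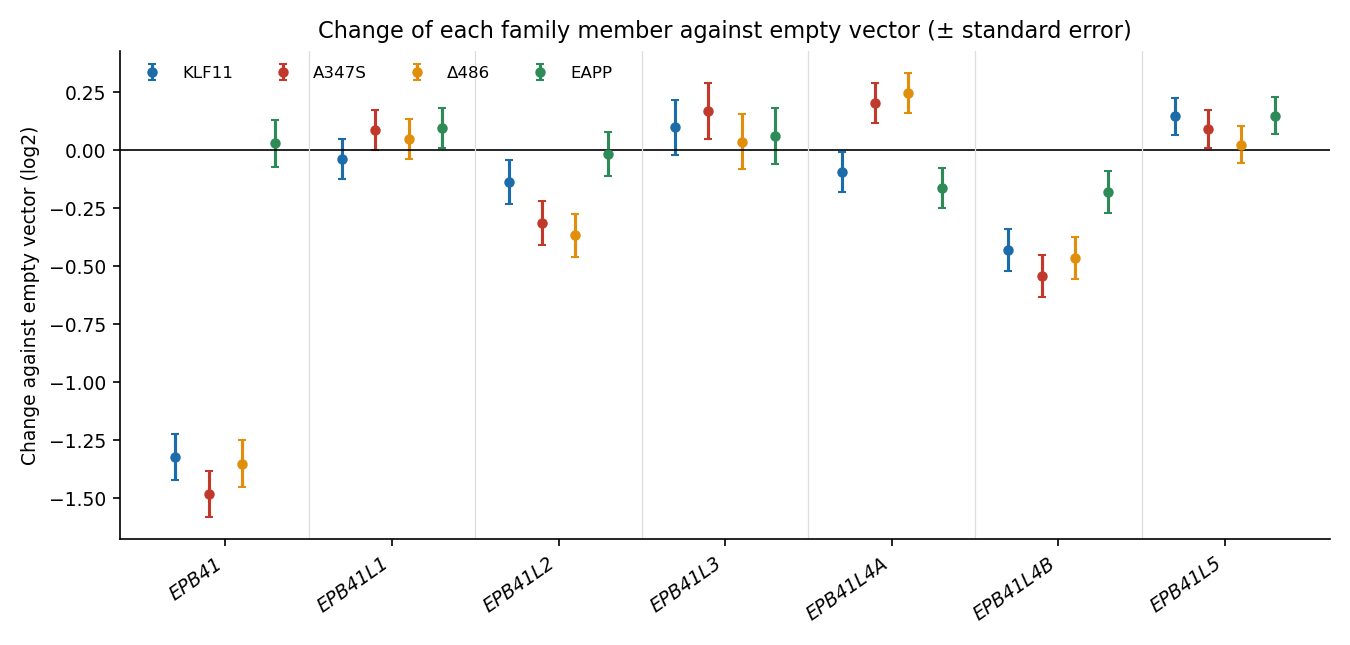
Difference of each member from empty vector in log2 units, by construct, with bars of 1 standard error of the linear model. EPB41 stands at -1.32, -1.48 and -1.35 under KLF11, A347S and Δ486 and at 0.03 under EAPP; no other member passes -0.54 in the downward direction or 0.25 in the upward direction.

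The constructs were then compared with each other. These 6 comparisons use no EV array, though they share the construct arrays with the contrasts on which the family was chosen. Each difference equals the change of a construct against EV minus that of another, and these changes were used in choosing the family. The adjusted p-values of all members in these comparisons are therefore descriptions and no independent test. EAPP was set against each other construct to describe how expression differed without the coupling to Sin3. EPB41 was higher under EAPP than under KLF11 by 1.35 log2 (95% interval 1.13 to 1.58). It was higher than under A347S by 1.51 (1.29 to 1.74) and higher than under Δ486 by 1.38 (1.16 to 1.61). The pattern of this gene was known beforehand, so these values are a description too.

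**Figure D3:**
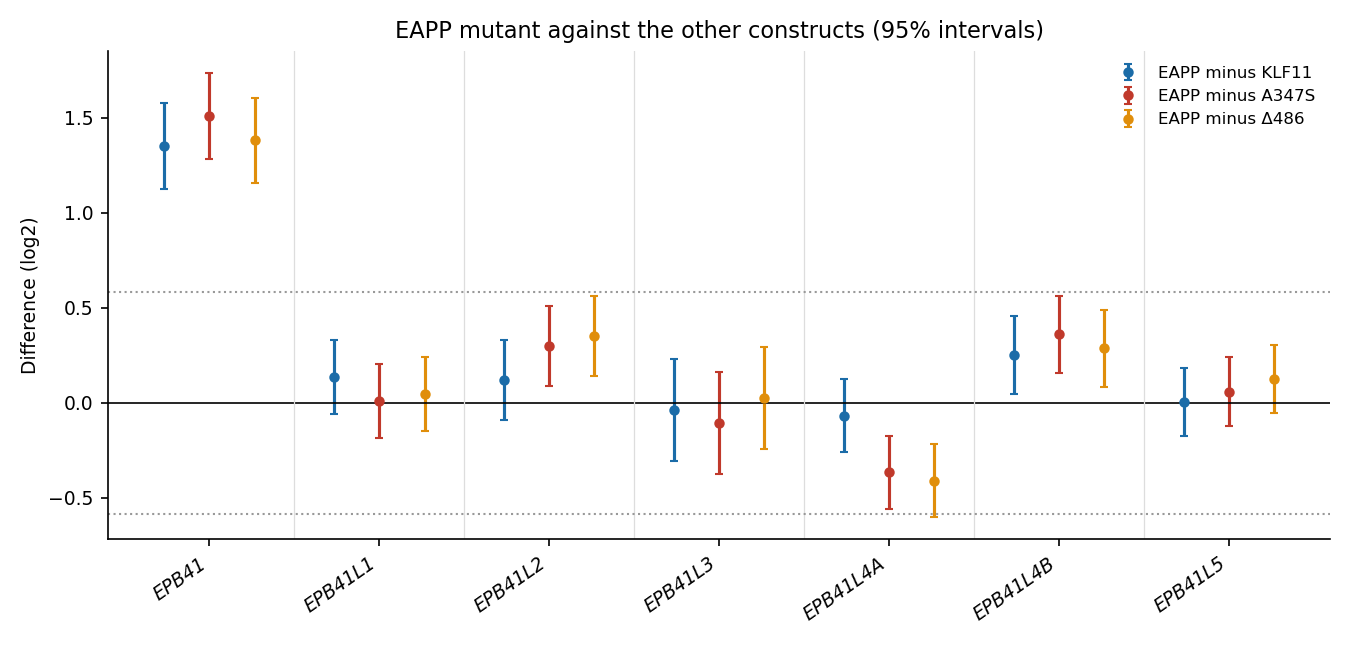
Difference in log2 expression between EAPP and each of the other constructs, with 95% intervals; dotted lines mark a fold of 1.5 in either direction. The EPB41 intervals run from 1.13 to 1.74 and lie beyond the line; the estimates of the other members lie within the lines, with EPB41L4A below 0 and EPB41L2 and EPB41L4B above it.

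Of the other 6 members, none passed the full call rule in any direct comparison. Counting EPB41, 1 of 7 members was called for EAPP against KLF11, where 2.51% of all clusters were called. The count was the same for EAPP against A347S, where the share was 6.01%, and against Δ486, where it was 3.26%. That member was EPB41, whose pattern was known beforehand, so nothing is read from these counts. The adjusted p-values of the other members carry the same limit, so a value under 0.05 is given as a description only. Below the fold of 1.5, EPB41L4A was lower under EAPP than under A347S by -0.37 log2 (limma adjusted p = 0.0126) and lower than under Δ486 by -0.41 (limma adjusted p = 0.0118). Its signal was in the lowest 3.44% of all clusters, so these are differences between dim values. EPB41L2 was higher under EAPP than under A347S by 0.30 (limma adjusted p = 0.0463) and than under Δ486 by 0.35 (limma adjusted p = 0.0336). EPB41L4B was higher under EAPP than under A347S by 0.36 (limma adjusted p = 0.0171), and its differences of 0.25 from KLF11 (limma adjusted p = 0.115) and 0.29 from Δ486 (limma adjusted p = 0.0625) did not pass. With only clusters brighter than the median tested, EPB41L4B also passed 0.05 against KLF11 (limma adjusted p = 0.0405) and against Δ486. Against KLF11, EAPP differed by -0.07 for EPB41L4A (limma adjusted p = 0.689) and by 0.12 for EPB41L2 (limma adjusted p = 0.480).

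Each of these 5 passing values lost its adjusted p below 0.05 when certain single arrays were left out. For EPB41L4A these were EAPP replicate 2 in both comparisons, A347S replicate 2 in the first and Δ486 replicate 1 in the second. For EPB41L2 against A347S they were EAPP replicate 1 and either A347S array, and against Δ486 they were EAPP replicate 1 and Δ486 replicate 1. For EPB41L4B against A347S they were EAPP replicate 2 and either A347S array. Fitting the 4 arrays compared alone, or adding the clusters without a symbol, also took both EPB41L2 values past 0.05, and cyclic loess did so against A347S. With the 4 arrays of the comparison with A347S left out in turn, the difference lay between -0.49 and -0.25 for EPB41L4A and between 0.20 and 0.40 for EPB41L2. EPB41L1, EPB41L3 and EPB41L5 differed from the other constructs under EAPP by -0.11 to 0.13 log2, with the lowest limma adjusted p at 0.362.

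Among wild type KLF11, A347S and Δ486 no member was called. EPB41 differed between A347S and KLF11 by -0.16 log2 (95% interval -0.38 to 0.07; limma adjusted p = 0.501), between Δ486 and KLF11 by -0.03 (-0.26 to 0.20; limma adjusted p = 0.927), and between A347S and Δ486 by -0.13 (-0.36 to 0.10; limma adjusted p = 0.782). The intervals together leave room for differences from -0.38 to 0.20 log2. EPB41L4A was higher than with wild type KLF11 by 0.30 under A347S (limma adjusted p = 0.205) and by 0.34 under Δ486 (limma adjusted p = 0.334). With limma 0% of all clusters were called for A347S against KLF11, 0% for Δ486 against KLF11 and 0% for A347S against Δ486. At an unadjusted p under 0.05 there were 3017, 2211 and 1557 clusters, and a model with a variance trend and robust moderation called 23, 6 and 0.

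The genes whose pattern over the 10 arrays was most like that of EPB41 were RCN2, IVNS1ABP, HTT, HERC2 and ALDH7A1. Pearson's r with EPB41 was 0.992, 0.991, 0.990, 0.990 and 0.988, among 1987 genes whose group means span at least a fold of 1.5. The 10 points share 5 groups and the values only describe these arrays. RCN2, a calcium-binding protein of the endoplasmic reticulum, read 10.65 and 10.63 in EV and 10.68 and 10.73 under EAPP. It read 9.63 and 9.59 under KLF11, 9.50 and 9.28 under A347S, and 9.59 and 9.59 under Δ486. It showed the same high and low sets as EPB41, with smaller differences against EV of -1.03, -1.24 and -1.05 log2. HERC2, a large ubiquitin ligase, differed least from EV among the 5, by -0.57, -0.76 and -0.68. No other member had group means that span a fold of 1.5, so none was given such a list.

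**Figure D4:**
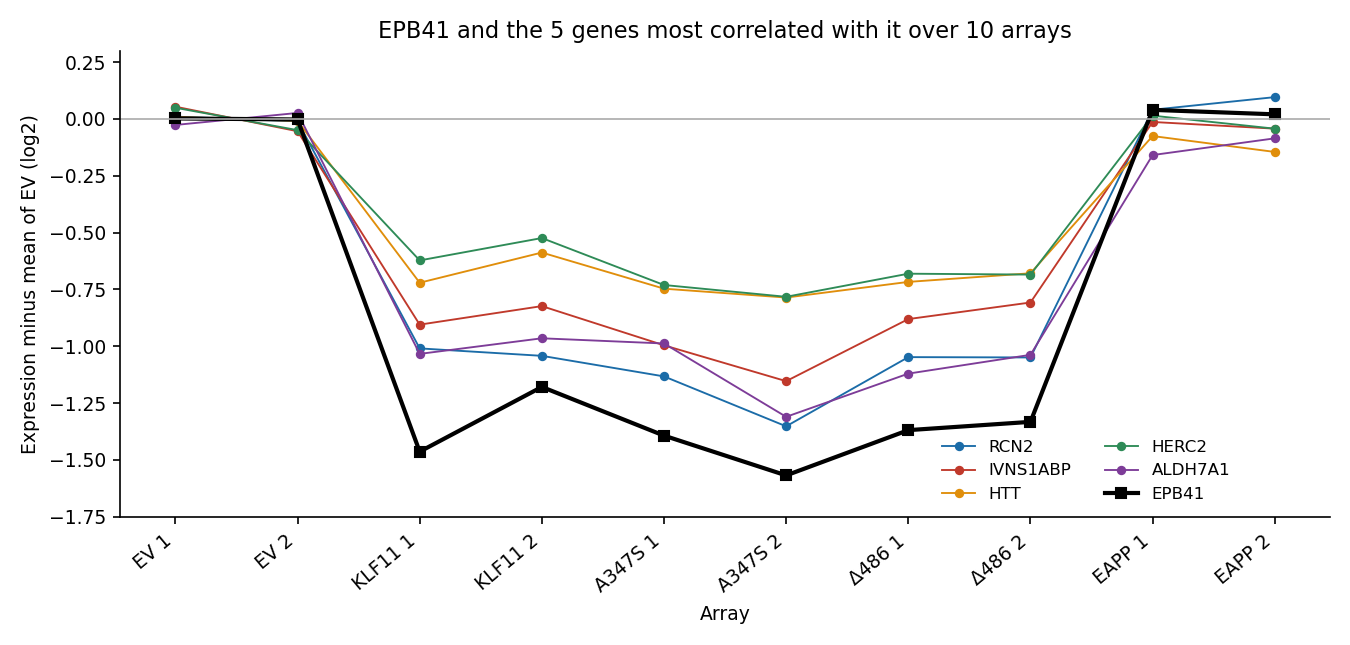
Log2 expression on each of the 10 arrays minus the mean of the 2 EV arrays, for EPB41 and the 5 genes most correlated with it; lines join arrays for reading and imply no order. All 6 genes are near 0 in EV and EAPP and lower on the 6 arrays of KLF11, A347S and Δ486, with EPB41 lowest, down to -1.57.

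Genes of the spectrin-actin skeleton, the structure that EPB41 holds together, were examined as a list of 22, of which 19 had a cluster with a single symbol. ADD1, the alpha adducin that caps actin filaments and recruits spectrin, read 9.05 and 9.03 in EV and 8.98 and 8.996 under EAPP. It read 8.44 and 8.32 under KLF11, 8.09 and 7.99 under A347S, and 8.39 and 8.10 under Δ486. The EV and EAPP arrays lay above all others. ADD1 fell by 0.66 ± 0.10 log2 under KLF11 (SE; limma adjusted p = 0.0023), by 0.999 ± 0.10 under A347S and by 0.79 ± 0.10 under Δ486. With EAPP it differed from EV by -0.05 ± 0.10 (limma adjusted p = 0.929), and it was higher under EAPP than under KLF11 by 0.61, a call lost at 0.55 without KLF11 replicate 2. STOM, the membrane protein stomatin, fell by 0.61 under A347S. Its call was lost without EV replicate 2, without A347S replicate 2, where it was at -0.53, and on rescaling by cyclic loess.

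Of the 19 skeleton genes, 1 fell under KLF11, 2 under A347S and 1 under Δ486, and none rose. The shares of 5.26%, 10.5% and 5.26% compare with 3.99%, 8.98% and 5.61% over all clusters, and the list median was -0.08, -0.10 and -0.12 log2 against -0.02, 0.01 and 0.02 over all clusters. With EAPP none was called. Between EAPP and A347S 2 of the 19 were called, 10.5% beside 6.01% of all clusters. ADD1 was higher under EAPP by 0.95 and ADD3, the gamma adducin, by 0.60. The ADD3 call was lost without EAPP replicate 1, without A347S replicate 2, where it was at 0.47, and with cyclic loess. ADD1 was the 1 gene called for EAPP against KLF11 and against Δ486, 5.26% beside 2.51% and 3.26% of all clusters.

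**Figure D5:**
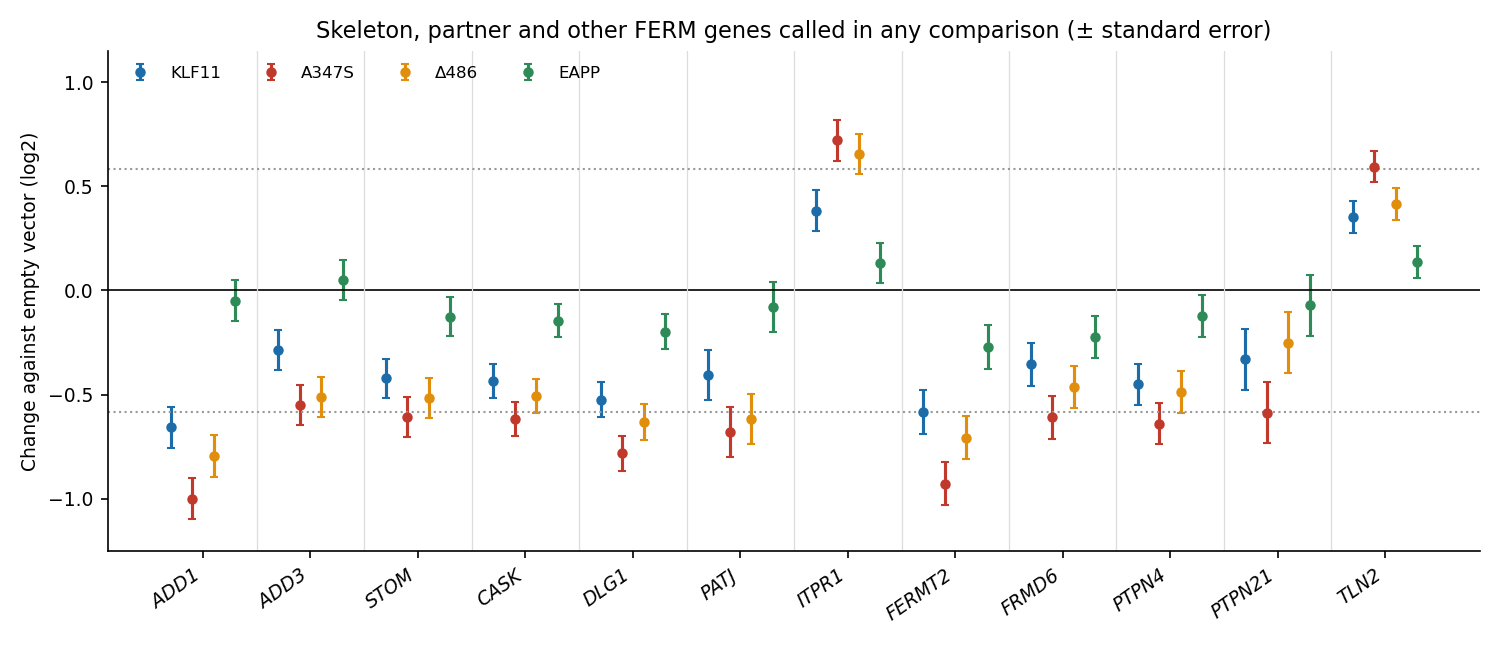
Difference from empty vector in log2 units for the genes of the skeleton, partner and other FERM lists that were called in any comparison, with bars of 1 standard error; dotted lines mark a fold of 1.5. ADD1 lies at -0.66, -0.999 and -0.79 under KLF11, A347S and Δ486 and at -0.05 under EAPP, and ITPR1 and TLN2 are the genes above 0 under KLF11, A347S and Δ486.

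Known binding partners of the family formed a list of 28, of which 22 were measured. None was called under KLF11 or under EAPP against EV. With A347S, 1 rose and 3 fell, 18.2% of the list against 8.98% of all clusters, and under Δ486 1 rose and 2 fell, 13.6% against 5.61%. DLG1, a scaffold of cell contacts that binds EPB41, read 10.17 and 10.11 in EV, 9.62 and 9.62 under KLF11, 9.46 and 9.26 under A347S, 9.54 and 9.49 under Δ486, and 9.99 and 9.90 under EAPP. It fell by 0.78 ± 0.08 under A347S and by 0.63 ± 0.08 under Δ486, where rescaling by cyclic loess moved it to -0.57 and lost the call. PATJ, a polarity scaffold, fell by 0.68 under A347S and by 0.62 under Δ486, and CASK, another scaffold of this kind, fell by 0.62 under A347S. ITPR1, the inositol trisphosphate receptor of the endoplasmic reticulum that EPB41L1 binds, rose by 0.72 ± 0.10 under A347S (limma adjusted p = 0.0005) and by 0.66 ± 0.10 under Δ486. The PATJ call under A347S was lost at -0.49 without A347S replicate 2, and under Δ486 without EV replicate 1 and, at -0.53, without Δ486 replicate 1. The CASK call was lost without EV replicate 1, without A347S replicate 2 and with cyclic loess, and that of ITPR1 under Δ486 at 0.56 without Δ486 replicate 2. The list median was 0.00 log2 under KLF11, 0.07 under A347S and 0.06 under Δ486. Between EAPP and A347S 2 partners were called, 9.09% beside 6.01% of all clusters. PATJ was higher under EAPP by 0.60 and ITPR1 lower by -0.59, and both calls were lost without A347S replicate 2 and without 1 of the EAPP arrays, replicate 1 for PATJ and replicate 2 for ITPR1. Cyclic loess also ended the PATJ call.

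Other genes with a FERM domain numbered 46, of which 44 were measured. None was called under KLF11, 5 under A347S, 1 under Δ486 and none under EAPP, or 11.4% and 2.27% for A347S and Δ486 beside 8.98% and 5.61% over all clusters. FERMT2, the kindlin that activates integrins, read 9.62 and 9.67 in EV, 9.06 and 9.07 under KLF11, 8.88 and 8.56 under A347S, 8.90 and 8.99 under Δ486, and 9.43 and 9.32 under EAPP. It fell by 0.93 ± 0.10 under A347S and by 0.71 ± 0.10 under Δ486, and was higher under EAPP than under A347S by 0.65, a call lost at 0.49 without A347S replicate 2. FERMT2 was the 1 gene of this list called for EAPP against A347S, 2.27% beside 6.01% of all clusters. PTPN4, a phosphatase with a FERM domain, fell by 0.64 under A347S, FRMD6 by 0.61 and PTPN21 by 0.59, and TLN2, a talin, rose by 0.59. Of these 4 calls, those of FRMD6, PTPN21 and TLN2 were lost without A347S replicate 2. They were also lost without EV replicate 2 for FRMD6 and without EV replicate 1 for PTPN21 and TLN2, and that of PTPN4 was lost without A347S replicate 1. Cyclic loess ended the calls of PTPN4, FRMD6 and TLN2. The list median was -0.07 log2 under KLF11, -0.18 under A347S and -0.05 under Δ486.

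Genes beside the members were read from the RefSeq order of genes. The nearest measured neighbours of EPB41, OPRD1 and SRSF4, and TMEM200B, which overlaps it, differed from EV by -0.12 to 0.09 log2 in all 4 constructs, with the lowest limma adjusted p at 0.468. None of them was called. At EPB41L4A, the overlapping antisense gene EPB41L4A-AS1 read 8.52 and 8.35 in EV, 9.17 and 9.01 under KLF11, 9.15 and 9.14 under A347S, 8.98 and 9.12 under Δ486, and 8.40 and 8.45 under EAPP. It rose by 0.65 ± 0.09 log2 under KLF11 (limma adjusted p = 0.0016), by 0.71 ± 0.09 under A347S and by 0.61 ± 0.09 under Δ486, and differed by -0.01 ± 0.09 under EAPP. The KLF11 call was lost without EV replicate 2 or KLF11 replicate 1, at 0.57 in the lowest case, and the Δ486 call without EV replicate 2 or Δ486 replicate 2, at 0.52. EPB41L4A itself was at -0.10 ± 0.09 under KLF11 and at 0.20 and 0.25 under A347S and Δ486. EPB41L4A-DT and SNORA13 also overlap it, and neither was called. For KLF11, A347S, Δ486 and EAPP, EPB41L4A-DT differed from EV by 0.06, 0.29, 0.38 and 0.05, each with an SE of 0.11. SNORA13 differed by 0.09, 0.28, 0.19 and 0.01, each with an SE of 0.10.

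NREP, the nearest measured gene before EPB41L4A, fell by 0.85 ± 0.10 log2 under KLF11, 1.12 ± 0.10 under A347S and 0.92 ± 0.10 under Δ486. With EAPP it was at -0.37 ± 0.10 (limma adjusted p = 0.342). Its arrays read 8.13 and 8.03 in EV and 7.77 and 7.64 under EAPP, and from 6.82 to 7.27 with the other constructs. PTPN4, already named, is also the nearest measured gene before EPB41L5. Of the 14 flanking genes, NREP was called under KLF11, A347S and Δ486 and PTPN4 under A347S, beside 3.99%, 8.98% and 5.61% of all clusters under KLF11, A347S and Δ486.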

How the data were processed

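RNA of Panc1 cells was hybridised to Affymetrix Human Gene 1.0 ST arrays. The deposited values are log2 expression that the authors obtained by Robust Multiarray Analysis, and the submitters' processing notes name Partek 6.6. For the array annotation, the sources used here name no genome build. Clusters without a symbol (7908 of 28869) were left out of the tests, and no filter on dim clusters was applied. All 10 arrays entered 1 linear model with a mean per group in limma 3.58.1 (R 4.3.3), leaving 5 residual degrees of freedom, to which moderation added 4.54, and p-values were adjusted by Benjamini-Hochberg over 20961 clusters. The fit was tested on simulated data. A true change near a fold of 1.5 can be estimated on either side of the threshold, so a missing call does not exclude it. Correlations, counts and figures used Python 3.11.15 and matplotlib 3.10.9. Members and gene lists were chosen with earlier results of these data known. Genes named are the members, up to 4 called genes of largest change per list, the 5 genes most correlated with a member whose group means span a fold of 1.5, the nearest measured neighbours, and KLF11. PTPN21 was named after its values were seen. The precision is limited by 2 arrays per group. Same-numbered arrays did not deviate together (r from -0.348 to 0.145), so numbers were not treated as pairs. The lowest r was between Δ486 and EAPP. With 2 arrays per group it means that arrays of unlike number deviated together in part, which the model did not take into account. Alternatives changed the scaling, moderation, test, samples, threshold, clusters tested and arrays.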

Additional observations from a re-analysis of the deposited data

How the results depend on the processing

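No called value of a member changed sign under the alternatives run. Cyclic loess, variance trend with robust moderation, fitting 4 arrays alone and clusters without a symbol kept 1 member called for EAPP against KLF11, A347S and Δ486. This was EPB41, whose pattern was known beforehand, so its call is no test of the family. An equal-variance t-test on each pair of groups, which lacks the Bayes step of the study's test, called 0 members and 0 clusters after adjustment in every comparison, which says nothing about stability at this size. Unadjusted, with the fold of 1.5, it called EPB41 in each of the 3 EAPP comparisons and 443, 1092 and 550 clusters. Without a fold threshold, 4 members passed for EAPP against A347S and 3 against Δ486, and clusters called rose to 3628, 5946 and 4692 for KLF11, A347S and Δ486 against EV and 2254, 4899 and 3148 for EAPP against them. Variance trend with robust moderation called 21 clusters for EAPP against EV in place of 1, bright clusters alone gave 12, and the 4 arrays alone gave 0. For A347S and Δ486 against KLF11 bright clusters alone gave 9 and 2, and cyclic loess gave 1 for Δ486. With the replicate block, EPB41 was at -1.32 with KLF11 and A347S against KLF11 had 1 cluster in place of 0, with no other call of a member changed. With arrays left out in turn, EPB41 lay between -1.46 and -1.18 with KLF11 and between 1.21 and 1.49 for EAPP against KLF11. Bright clusters alone leave out EPB41L1, EPB41L3 and EPB41L4A, so no member count was made. Averaging all clusters of a member changed nothing, each having 1. For EPB41L2 the adjusted p ranged from 0.00693 to 0.251 against A347S, passing in 4 of 11 alternatives, and from 0.00329 to 0.186 against Δ486, passing in 6. The replicate block took both past 0.05. With cyclic loess, A347S against EV called 1, 3 and 3 genes of the skeleton, partner and other FERM lists. Without single arrays it called 1 to 3, 2 to 4 and 2 to 5. Without a fold threshold it called 4, 9 and 17. The cause of these shifts was not tested.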
